A study of Sus scrofa with 8 samples.

Results

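The 10 genes described here are members of the IL-1 family of cytokines and of its receptors and signalling proteins, named as IL1A, IL1B, IL18 and IL33 (ligands), IL1RN (a receptor antagonist), IL1R1, IL1RAP, IL1R2 and IL1RL1 (receptor chains) and IRAK3 (a signalling inhibitor). Of the 31907 genes in the deposited count table, 8 were matched to these names by symbol and IL1B by its NCBI gene ID, which gave 9 genes in all. IL1RN was matched to no row and is not analysed here. RNA of whole skin biopsies from 2 wild-type Yorkshire swine, pig 13 and pig 14, was sequenced. The injected group held 4 biopsies taken 3 h after an intradermal dose of 200 ng IL-15 in 100 µl saline, from sites 12c and 12e of pig 13 and sites 12c and 12d of pig 14. The control group held 4 biopsies of skin that was not injected, from sites 6b and 7b of pig 13 and sites 6b and 7e of pig 14. The labels used here state no age for the animals. No site received saline alone, and injected and control sites carried different site numbers, so IL-15, the needle and the position on the skin cannot be told apart. IL-15 signals through the kinases JAK1 and JAK3, and according to the design text the study looked for readout genes for a topical inhibitor of these kinases.

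IL-1 cytokines are early alarm signals of the skin. Keratinocytes store IL-1 alpha and IL-18, and IL-33 is kept in the nuclei of epithelial, endothelial and stromal cells, whereas IL-1 beta is mostly made on demand by myeloid cells and cut to its active form by caspase-1. IL-1 alpha and IL-1 beta bind the receptor IL1R1, which recruits the accessory chain IL1RAP and signals through MYD88 and IRAK kinases to NF-kB. IL1R2 binds the same ligands without signalling and acts as a decoy, IL1RL1 (also called ST2) is the receptor of IL-33, and IRAK3 (also called IRAK-M) restrains the pathway.

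In the Sscrofa11.1 annotation of the deposited files all 9 genes are protein-coding and counted over their exons. IL1B (ENSSSCG00000039214, chromosome 3, 43670109 to 43677125, plus strand) and IL1A (ENSSSCG00000008090, chromosome 3, 43718368 to 43731119, plus strand) lie 41.2 kb apart. A cluster of receptor genes spans 644.2 kb of the same chromosome on the minus strand and holds IL1RL1 (ENSSSCG00000032795, 51803165 to 51951383), IL1R1 (ENSSSCG00000008162, 52192914 to 52288515) and IL1R2 (ENSSSCG00000028331, 52367437 to 52406334). The other members are IL18 (ENSSSCG00000015037, chromosome 9, 39834966 to 39873300, minus strand), IL33 (ENSSSCG00000005203, chromosome 1, 215899435 to 215941840, minus strand), IL1RAP (ENSSSCG00000021206, chromosome 13, 127933682 to 128072348, plus strand) and IRAK3 (ENSSSCG00000000475, chromosome 5, 30525948 to 30609922, plus strand). IL18 overlaps BCO2 and TEX12, and IL33 overlaps RANBP6, each on the opposite strand and with 0 shared exon bases.

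The annotation limits what the rows of IL1RL1 and IL1B mean. The IL1RL1 gene model holds 6746 of the 6846 exon bases (98.5%) of IL18R1, the gene of the IL-18 receptor chain, on the same strand, and these make up 46.3% of its own exon bases. IL18R1 itself was listed with 0 to 2 counts per biopsy. How reads on the shared bases were counted is not given, so it is uncertain whether the IL1RL1 row holds reads of the IL-18 receptor chain. If such reads were left out, the level of this row per length is too low, because all 14575 exon bases enter it. The table also lists 7 further copies of IL1B on unplaced sequences, among them IL1B2. Of these, 4 had any count, with at most 3 in a biopsy and 12 in all. The sources used here do not say how reads matching several copies were counted, which leaves the level of IL1B uncertain.

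The control biopsy from site 7b of pig 13 stood apart in its marker genes. Keratinocyte and fibroblast genes of skin were detected in all biopsies, with KRT5, a keratin of basal keratinocytes, at 3171 to 10850 CPM. At site 7b the 12 matched markers of differentiated keratinocytes summed to 27230 CPM, while the remaining controls had 10950 to 14260 and the injected sites 6963 to 14180 CPM. Basal keratinocyte markers (8 genes) were also highest there, at 22340 CPM in sum. The remaining controls had 7766 to 13960 and the injected sites 12670 to 16770 CPM of these. Fibroblast markers (9 genes) summed to 19840 CPM in that biopsy, and the remaining controls had 77500 to 193200 CPM. Collagen genes dominate this sum, with COL1A1, COL1A2 and COL3A1 at means of 59190, 24920 and 27490 CPM over control sites. The list did not move together at site 7b. DCN was at its lowest of all biopsies there (877.5 CPM), whereas PDGFRA was at its highest (124.3 CPM). Neutrophil markers (10 genes) were at 445.9 CPM in sum, while the remaining controls had 71.06 to 133 and the injected sites 86.61 to 167 CPM. At site 7b S100A9 and S100A8 gave 114.5 and 93.86 CPM of that sum, whereas VNN2, at 1.04 CPM, was at its lowest among the controls. S100A12 also varied widely over the controls (mean 63.9, SD 71.3 CPM). CSF3R (mean 7.03, SD 1.13) and ELANE (mean 3.65, SD 0.37) varied little, so this list did not move together either. These single marker genes were named after their values were seen. None of the genes in these lists was at 0 in that biopsy, and at most 1 neutrophil gene was at 0 in any other.

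All 9 genes were detected in every biopsy, at levels that differed widely between them. Per length, IL1R2, the decoy receptor, was highest at 19.6 ± 6.49 RPKM (SD, n = 8 biopsies), followed by IL1R1 at 12.5 ± 1.71 and IL33 at 11.5 ± 1.64. RPKM here is CPM (counts scaled to library size, with TMM factors) per kilobase of the deposited gene length. IL1A was at 4.78 ± 2.30 RPKM, IRAK3 at 3.35 ± 0.668 and IL1RAP at 3.06 ± 0.284. IL18 was at 1.19 ± 0.281 RPKM, IL1B at 0.516 ± 0.406 and the IL1RL1 row at 0.134 ± 0.0685. IL1R2 lay above IL1R1, IL33 above IL1A, and IL1RAP above IL18 in 8 of 8 biopsies. The order of IL1R1 and IL33, and that of IRAK3 and IL1RAP, held in only 5 of 8 biopsies, and these neighbours did not differ beyond their spread. The accessory chain IL1RAP was thus listed well below the ligand-binding chain IL1R1 in these whole biopsies.

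No member was called higher or lower at injected sites. In edgeR's quasi-likelihood test with pig in the model, 0 of 9 members passed at an adjusted p under 0.05 in either direction, against 0.0352% of all 19862 tested genes called higher and 0% called lower. At an unadjusted p under 0.05 edgeR had 1 member higher (IL1R1) and 0 lower, against 2.39% and 2.15% of all genes. DESeq2 also called 0 members (background 0.242% higher and 0.0503% lower), with 2 of them, IL1R1 and IL1B, higher at an unadjusted p under 0.05, against 2.49% of all genes. limma-voom called 0 members (background 0.0302% higher and 0% lower), with 2 higher at an unadjusted p under 0.05, against 2.52% of all genes. Of the 9 log2 fold changes 3 were above 0 and 6 below, with a median of -0.07, beside -0.01 over all genes tested. These p-values rest on the spread between skin sites within a pig and on the difference in response between the pigs. With 2 animals, they do not measure the spread over swine in general.

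**Figure D1:**
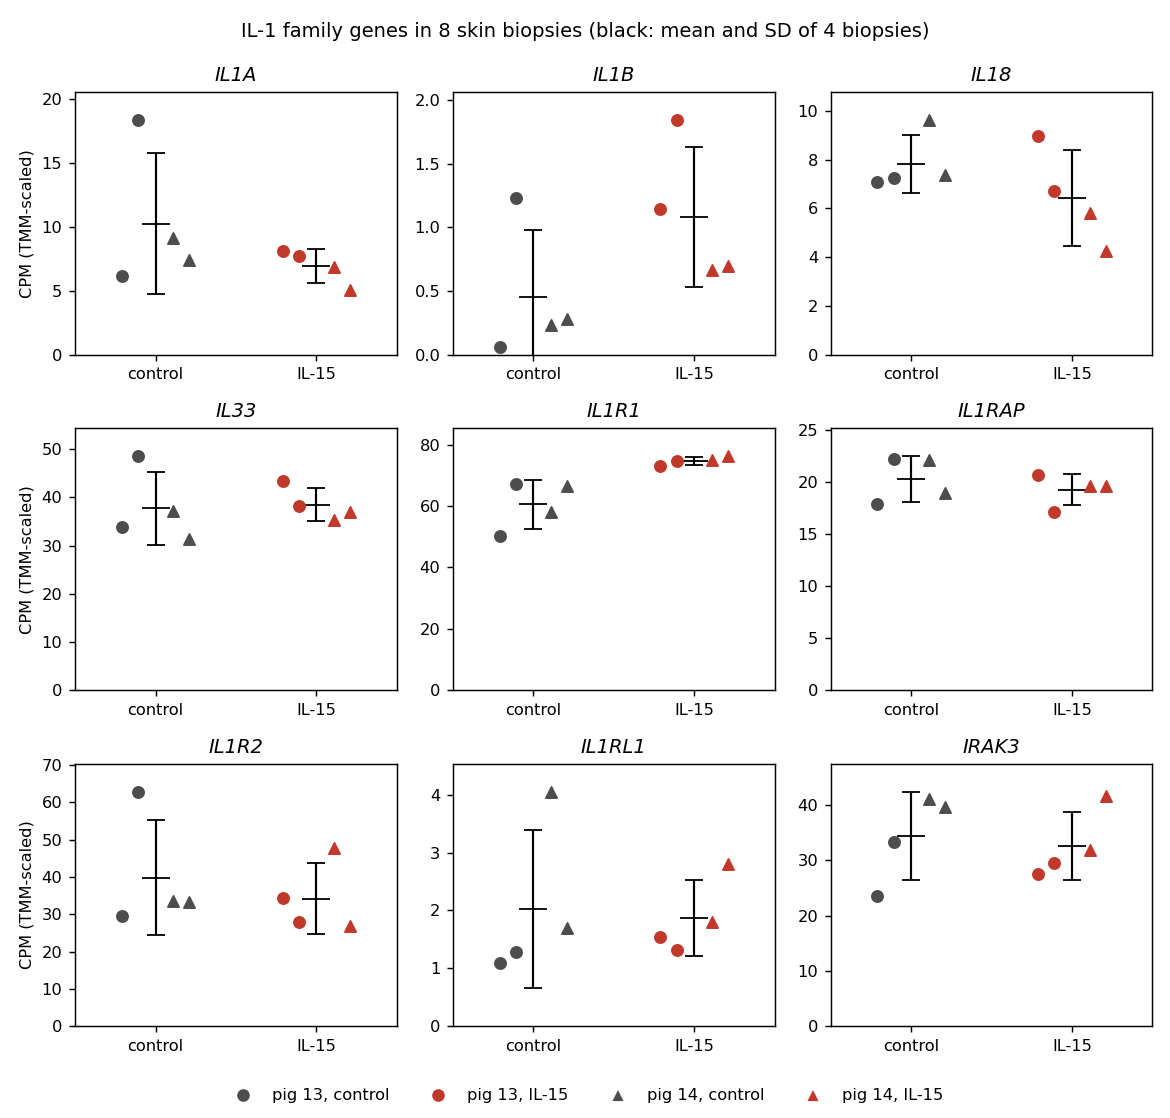
Level of each matched IL-1 family gene (y axis, CPM after TMM scaling, starting at 0) in control and IL-15 biopsies (x axis), with circles for pig 13, triangles for pig 14 and black bars for the mean and SD of 4 biopsies. Only in the IL1R1 panel do all 4 injected biopsies lie above all 4 controls, and the pig 13 control from site 7b is the highest control point for IL1A, IL1B, IL1R1, IL1R2, IL1RAP and IL33. The lower SD bar of the IL1B controls ends at the axis.

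Among the ligands, IL1B had the largest difference and also the fewest counts. IL1B was at 1.14 and 1.84 CPM at the injected sites 12c and 12e of pig 13, and at 0.662 and 0.692 CPM at sites 12c and 12d of pig 14. In the controls it was at 0.0605 CPM at site 6b and 1.23 CPM at site 7b of pig 13, and at 0.229 and 0.283 CPM at sites 6b and 7e of pig 14. All 4 injected values lay above 3 of the 4 controls, and the control from site 7b lay above 3 of the 4 injected values, so the groups overlapped. The group means were 1.08 ± 0.550 and 0.450 ± 0.528 CPM (SD, n = 4), a 2.40-fold difference, with a log2 fold change of 1.26 ± 0.62 (SE, adjusted p = 0.964 by edgeR). The 95% confidence interval ran from -0.12 to 2.64. These levels rest on 18 to 56 counts per injected and 2 to 45 per control biopsy. At site 6b of pig 13 the 2 counts give an exact 95% Poisson interval of 0.00732 to 0.218 CPM, which covers counting error only.

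IL1A, the alarmin stored in keratinocytes, had the opposite sign. It was at 8.07 and 7.69 CPM at the injected sites 12c and 12e of pig 13 and at 6.84 and 5.09 CPM at sites 12c and 12d of pig 14. The controls were at 6.17 (site 6b) and 18.3 CPM (site 7b) in pig 13 and at 9.12 (site 6b) and 7.38 CPM (site 7e) in pig 14. Both injected values of pig 14 were below both of its controls, while in pig 13 they lay between a low and a high control. The share of all genes with such an order within a single pig, 2 biopsies against 2, is not given here. The log2 fold change was -0.56 ± 0.30 (SE, 95% interval -1.23 to 0.12, adjusted p = 0.964 by edgeR). Per length, IL1A exceeded IL1B by 3.46 to 8.55 times in the injected and by 12.3 to 84.4 times in the control biopsies, and these ranges did not overlap. The highest ratio belongs to the control with 2 IL1B counts, and the ratio was not tested. How often other pairs of genes give ranges apart was not computed.

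IL18 and IL33 differed less. IL18, a cytokine that promotes interferon gamma production, was at 8.97 and 6.70 CPM at the injected sites 12c and 12e of pig 13 and at 5.81 and 4.26 CPM at sites 12c and 12d of pig 14. In the controls it was at 7.10 (site 6b) and 7.27 CPM (site 7b) in pig 13 and at 9.62 (site 6b) and 7.38 CPM (site 7e) in pig 14. Injected biopsies of pig 14 thus lay below both of its controls, while those of pig 13 lay on either side. As for IL1A, the share of all genes with that order in a single pig is not given. The log2 fold change was -0.31 ± 0.22 (SE, 95% interval -0.79 to 0.17, adjusted p = 0.964 by edgeR). It moved to -0.13 without the injected site 12d of pig 14, to -0.14 without the control site 6b of pig 14 and to -0.49 without the injected site 12c of pig 13. IL33 ran from 35.3 to 43.3 CPM in injected and from 31.4 to 48.5 CPM in control biopsies, so the injected values lay inside the control range. Its log2 fold change was 0.03 ± 0.12 (SE, 95% interval -0.24 to 0.30).

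Among the receptor chains IL1R1, the signalling receptor of IL-1 alpha and IL-1 beta, was the only member whose groups did not overlap. It was at 73.1 and 74.6 CPM at the injected sites 12c and 12e of pig 13 and at 74.8 and 76.2 CPM at sites 12c and 12d of pig 14. The controls were at 50.4 (site 6b) and 67.2 CPM (site 7b) in pig 13 and at 58.0 (site 6b) and 66.5 CPM (site 7e) in pig 14. Every injected biopsy lay above every control, and the 4 injected values lay within a narrow range. Of all tested genes 1.15% had every injected above every control biopsy and 0.916% the reverse, against 1 and 0 of the 9 members. The means were 74.7 ± 1.30 and 60.5 ± 7.95 CPM (SD, n = 4), a 1.23-fold difference. The log2 fold change was 0.31 ± 0.10 (SE, 95% interval 0.08 to 0.53, unadjusted p = 0.0139, adjusted p = 0.964 by edgeR). The difference therefore did not pass over all genes. Marker genes of several cell types also had log2 fold changes above 0. Above 0 were 6 of 9 fibroblast (median 0.28), 7 of 8 basal keratinocyte (0.17) and 6 of 7 sebaceous and hair follicle markers (0.43). So were 6 of 8 macrophage, monocyte and dendritic (0.13) and 3 of 5 mast cell markers (0.08). In these lists 0 were called by edgeR or DESeq2. Below 0 were 6 of 9 T and NK cell, 8 of 9 neutrophil and all 12 differentiated keratinocyte markers. Of 9 endothelial markers 7 were above 0 and 0 were called by edgeR. At an unadjusted p under 0.05 in edgeR 3 were higher, against 2.39% of all genes. DESeq2 called 1 higher, against 0.242% of all genes. This was the chemokine-binding receptor ACKR1 (edgeR log2 fold change 0.56 ± 0.09, adjusted p = 0.173, and DESeq2 adjusted p = 0.000386). The median of that list was 0.10, and its sum was 733.2 to 1059 CPM at injected and 676.1 to 910.8 CPM at control sites. All 6 adipocyte markers had a log2 fold change above 0 (median 0.83, and 0.46 without site 7b), with 0 called by edgeR or DESeq2 and 0 at an unadjusted p under 0.05. Their sum was 545.6 to 2438 CPM at injected and 485.6 to 2635 CPM at control sites. None of the endothelial and adipocyte markers was at 0 in any biopsy. The part of any of these cell types in the IL1R1 difference was not tested.

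IL1RAP, the accessory chain shared by the receptors of IL-1 and IL-33, ranged from 17.1 to 20.6 CPM at injected sites and from 17.8 to 22.2 CPM at control sites, so the ranges overlapped. The log2 fold change of -0.07 ± 0.11 had a 95% interval of -0.33 to 0.18. The decoy IL1R2 was at 34.3 and 28.0 CPM at the injected sites 12c and 12e of pig 13 and at 47.6 and 26.8 CPM at sites 12c and 12d of pig 14. Its controls were at 29.4 (site 6b) and 62.8 CPM (site 7b) in pig 13 and at 33.7 (site 6b) and 33.3 CPM (site 7e) in pig 14. A single injected biopsy of pig 14 and a single control of pig 13 thus stood above the other 6, which lay between 26.8 and 34.3 CPM. The log2 fold change was -0.21 ± 0.30 (SE, 95% interval -0.90 to 0.49). The ratio of decoy to signalling receptor, IL1R2 over IL1R1 per length, was 1.01 to 1.82 in injected and 1.44 to 2.68 in control biopsies. The IL1RL1 row ranged from 1.31 to 2.80 CPM at injected sites and from 1.09 to 4.05 CPM at control sites, with a log2 fold change of -0.04 ± 0.31 (SE, 95% interval -0.72 to 0.65). In pig 13 both injected values (1.31 and 1.54 CPM) lay above both controls (1.09 and 1.28 CPM), while in pig 14 the values overlapped.

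IRAK3, the inhibitor of IRAK signalling, was at 27.6 and 29.5 CPM at the injected sites 12c and 12e of pig 13 and at 31.8 and 41.6 CPM at sites 12c and 12d of pig 14. The controls were at 23.6 (site 6b) and 33.3 CPM (site 7b) in pig 13 and at 41.0 (site 6b) and 39.6 CPM (site 7e) in pig 14. The groups overlapped in both pigs. The log2 fold change was -0.07 ± 0.13 (SE, 95% interval -0.35 to 0.22, adjusted p = 0.973 by edgeR). For IL33, IL1RAP and IRAK3 a change of more than 0.35 on the log2 scale in either direction lay outside the 95% interval, whereas for IL1A, IL1B, IL1R2, IL18 and the IL1RL1 row wider intervals left larger changes possible.

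**Figure D2:**
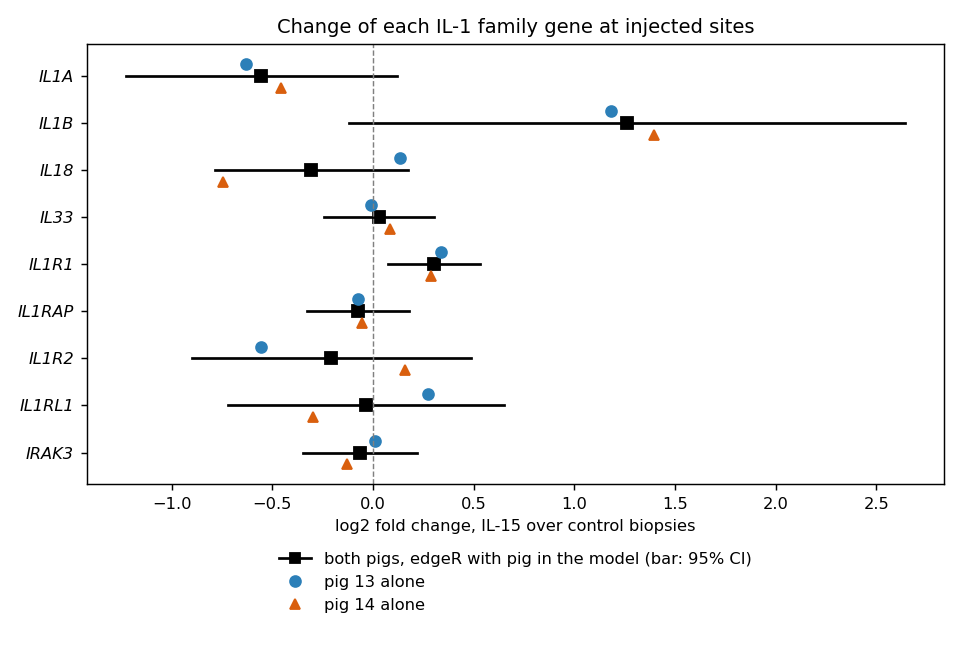
Log2 fold change of injected over control biopsies (x axis) for each member (y axis). Squares with 95% confidence bars are the fit over both pigs, circles pig 13 alone and triangles pig 14 alone. The bar of IL1R1 (0.08 to 0.53) is the only bar that does not cross 0, and the pigs lie on opposite sides of 0 for IL18, IL33, IL1R2, IL1RL1 and IRAK3.

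IL1A, IL1B, IL1R1, IL1R2, IL1RAP and IL33 had their highest control value at site 7b of pig 13. That biopsy had the highest sums of basal and of differentiated keratinocyte markers. All 12 tested markers of differentiated keratinocytes had a log2 fold change below 0 (median -0.43), and 0 were called by edgeR or DESeq2. In edgeR 4 were lower at an unadjusted p under 0.05, against 2.15% of all genes. Without site 7b the median was -0.24, with 1 marker above 0. In that fit 2 were lower at an unadjusted p under 0.05, as were 515 of all 20223 genes. The lowest sum of these markers, 6963 CPM, was in the injected biopsy from site 12d of pig 14, which also had the lowest IL1A, IL18 and IL1R2 of all biopsies. In pig 13 the sum of neutrophil markers was 71.06 CPM at the control site 6b, where IL1B was lowest of all biopsies, and 445.9 CPM at site 7b, where IL1B was second highest. The injected sites 12c and 12e of that pig had sums of 167 and 124.7 CPM. In pig 14 the sums were 86.61 and 91.58 CPM at the injected sites 12c and 12d and 124.4 and 133 CPM at the control sites 6b and 7e. Of the 9 tested neutrophil markers 8 had a log2 fold change below 0 (median -0.50, and -0.07 without site 7b), with 0 called by edgeR or DESeq2. In edgeR 1 was lower at an unadjusted p under 0.05, against 2.15% of all genes. The part of tissue composition in these values was not tested. In bulk biopsies, fewer cells of a type and less RNA per cell cannot be told apart.

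**Figure D3:**
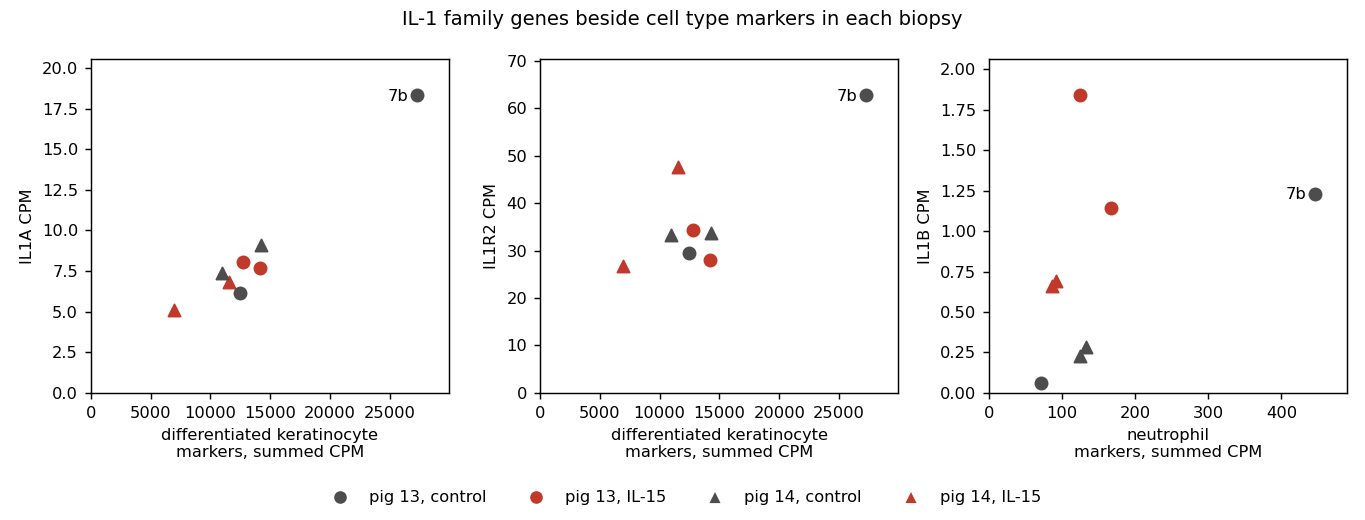
Level of IL1A, IL1R2 and IL1B (y axes, CPM) against the summed CPM of marker genes of differentiated keratinocytes or neutrophils (x axes) in the 8 biopsies, with circles for pig 13, triangles for pig 14, red for IL-15 and grey for control. The control from site 7b lies far to the right in all panels, with 27230 CPM of differentiated keratinocyte and 445.9 CPM of neutrophil markers.

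Without the biopsy from site 7b, 0 of 9 members were called, against 0.094% of all 20223 genes called higher and 0% called lower. IL1B then had a log2 fold change of 2.36 ± 0.61 (SE, unadjusted p = 0.00283, adjusted p = 0.541 by edgeR), in place of 1.26. IL1R1 had 0.39 ± 0.10 (unadjusted p = 0.00261, adjusted p = 0.527). IL1A had -0.15 ± 0.21 in place of -0.56, and IL1R2 had 0.12 ± 0.18 in place of -0.21. Pig 13 keeps only the control from site 6b in this fit, where IL1B rests on 2 counts. Without that control in turn, and with site 7b kept, IL1B had 0.80.

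**Figure D4:**
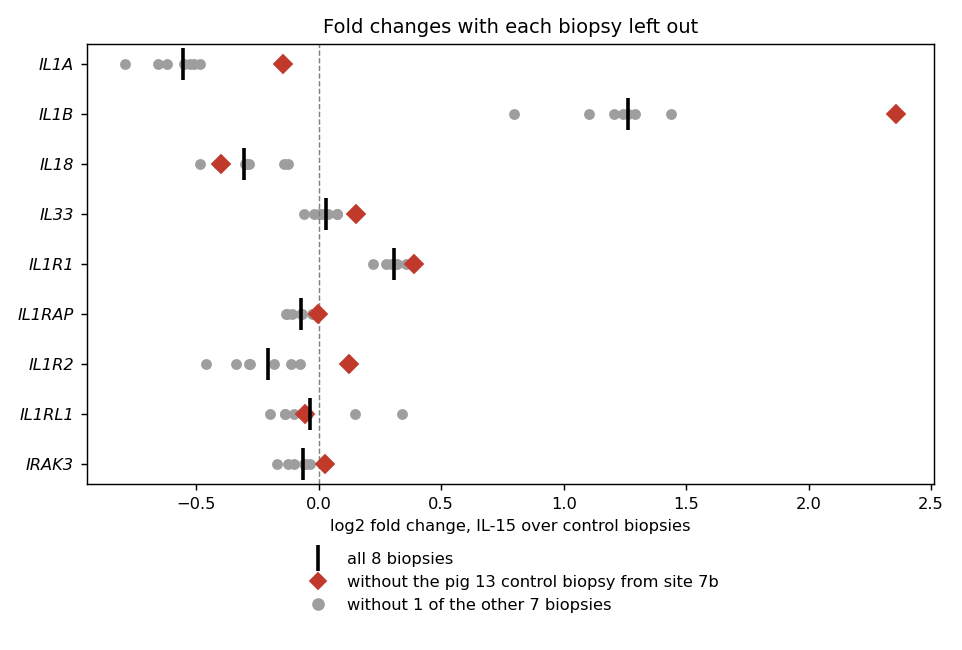
Log2 fold change of each member (x axis) with all 8 biopsies (black line) and with each biopsy left out in turn (points). Red diamonds leave out the pig 13 control from site 7b and lie farthest from the full fit for IL1A (-0.15) and IL1B (2.36), while all points of IL1R1 stay between 0.22 and 0.39.

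No difference in response between the pigs passed the test for any member. The interaction of pig and treatment called 0 of 9 members in edgeR, where 0% of all genes were called, and 0 in DESeq2, where 0.433% were. DESeq2 gave no adjusted p for IL1B in this term, so IL1B could not be called there. IL18 was the only member at an unadjusted p under 0.05 in this term, against 8.22% of all genes. Its log2 fold change was 0.13 ± 0.23 in pig 13 alone and -0.75 ± 0.25 in pig 14 alone (SE, n = 2 against 2 biopsies), a difference of -0.88 ± 0.35 (adjusted p = 0.552 by edgeR). IL1R1 had 0.34 ± 0.17 and 0.29 ± 0.11, and IL1B 1.18 ± 1.04 and 1.39 ± 0.57, in pig 13 and pig 14. The signs of the other members besides IL1A and IL1RAP differed between the pigs.

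Levels also differed between the 2 animals, which are 1 animal each, so the comparison is of these pigs only. The IL1RL1 row was higher in pig 14, at a mean of 2.59 against 1.31 CPM in pig 13 (log2 difference 0.98 ± 0.31, adjusted p = 0.0702 by edgeR). IRAK3 was at 38.5 CPM in pig 14 and 28.5 CPM in pig 13 (0.43 ± 0.13, adjusted p = 0.057). Neither passed the threshold, and 0 of 9 members were called in either direction, against 6.39% of all genes called higher and 4.34% called lower in pig 14. These were the only members with an unadjusted p under 0.05 in the pig term of edgeR, where 14.4% of all genes were higher in pig 14 at that level. T and NK cell markers (9 genes) summed to 36.3 to 70.05 CPM in pig 14 and 19.53 to 28.03 CPM in pig 13, and mast cell markers (5 genes) to 83.52 to 123.5 and 62.02 to 78.81 CPM. The pig 14 control from site 6b had the highest value of both lists and of the IL1RL1 row, 4.05 CPM. That biopsy was also highest in the sums of fibroblast markers (193200 CPM) and of macrophage, monocyte and dendritic markers (695.5 CPM). Fibroblast sums separated the pigs too, at 137200 to 193200 CPM in pig 14 and 19840 to 109700 CPM in pig 13. The part of these lists in the pig difference was not tested.

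Other genes of the pathway were described from lists. Of the remaining receptor genes 4 of 6 were tested and 0 were called by edgeR or DESeq2, with 0 at an unadjusted p under 0.05. SIGIRR, an inhibitory receptor of the family, had a log2 fold change of 0.17 ± 0.15, IL1RAPL2 0.45 ± 0.52 and IL18RAP, the accessory chain of the IL-18 receptor, 0.09 ± 0.42. IL1RL2, the receptor of the IL-36 cytokines, averaged 63.4 ± 13.0 CPM over injected sites and 63.8 ± 11.4 CPM over control sites (SD, n = 4), a level near that of IL1R1 on the CPM scale. It is named beyond the 3 genes of smallest p in its list and was chosen after its values were seen. Of the other ligands and binding proteins 2 of 8 names were matched, IL1B2 and IL18BP, and neither had enough counts to be tested.

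Inflammasome and processing genes gave 0 calls of 10 tested by edgeR or DESeq2, and 0 at an unadjusted p under 0.05. Their median log2 fold change was 0.04 (0.16 without site 7b of pig 13). The inflammasome sensor NLRP3 had 0.32 ± 0.27, the calpain CAPN2, a protease of the family that cuts IL-1 alpha, 0.13 ± 0.11, and PRTN3, a neutrophil serine protease, 0.33 ± 0.35. Of 25 genes of receptor signalling 0 were called by either tool, with a median of 0.03. At an unadjusted p under 0.05 in edgeR 3 were higher and 0 lower, against 2.39% and 2.15% of all genes. Without site 7b 5 were higher, against 3.38% of all genes, and 0 lower at that level. The median was then 0.06, with 0 called. The 3 in all biopsies were the kinase MAP3K8 (0.44 ± 0.10, adjusted p = 0.655), the NF-kB subunit RELB (0.60 ± 0.16, adjusted p = 0.772) and NFKB2 (0.47 ± 0.13, adjusted p = 0.807), all by edgeR. The proximal adaptors and kinases lay close to 0: MYD88 had -0.11 ± 0.20, IRAK1 0.08 ± 0.12, IRAK4 0.04 ± 0.11 and TRAF6 -0.02 ± 0.08, named after their values were seen.

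Feedback inhibitors of NF-kB signalling gave 0 calls of 12 by edgeR or DESeq2, 3 higher and 0 lower at an unadjusted p under 0.05, and a median of 0.18. Over all genes 2.39% were higher at that level. NFKBIA, which holds NF-kB in the cytoplasm, had a log2 fold change of 0.53 ± 0.13, the ubiquitin-editing enzyme TNFAIP3 0.92 ± 0.27 and NFKBIE 0.44 ± 0.15 (adjusted p = 0.746, 0.964 and 0.964 by edgeR). Genes known to respond to IL-1 gave 1 call of 26 tested, PTX3, a secreted pentraxin (2.90 ± 0.30, adjusted p = 0.0296 by edgeR), with a median of 0.19. A further 8 were higher and 0 lower at an unadjusted p under 0.05, and DESeq2 called 6 of the 26 higher, against 0.242% of all genes. TNF had 1.41 ± 0.24 and TNFAIP6, a hyaluronan-binding protein, 1.28 ± 0.29 (adjusted p = 0.200 and 0.667 by edgeR). Both were among those called by DESeq2 (adjusted p = 0.000151 and 0.00439). Many of these genes also respond to other inflammatory signals, and the list does not separate IL-1 from them. The counts in both lists moved with the control from site 7b. Without it 6 inhibitors and 12 response genes were higher at an unadjusted p under 0.05, against 3.38% of all genes, and 0.094% of all genes were called higher. In that fit edgeR called 1 of the 12 inhibitors, the RNase ZC3H12A (0.94 ± 0.13, adjusted p = 0.0327), and 2 of the 26 response genes, the cytokine IL6 (4.09 ± 0.40, adjusted p = 0.00588) and the adhesion molecule ICAM1 (1.54 ± 0.18, adjusted p = 0.0206). PTX3 then had 2.86 ± 0.38 (adjusted p = 0.137 by edgeR), which no longer passed. The list medians were 0.39 and 0.69, beside -0.003 over all genes. ZC3H12A, IL6 and ICAM1 were named after their values were seen, beyond the 3 genes of smallest p in their lists. With all 8 biopsies they had 0.29 ± 0.465, 2.995 ± 0.612 and 1.21 ± 0.274 (adjusted p = 0.972, 0.681 and 0.770 by edgeR). DESeq2 called IL6 and ICAM1 with all biopsies (adjusted p = 0.00674 and 0.00141).

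**Figure D5:**
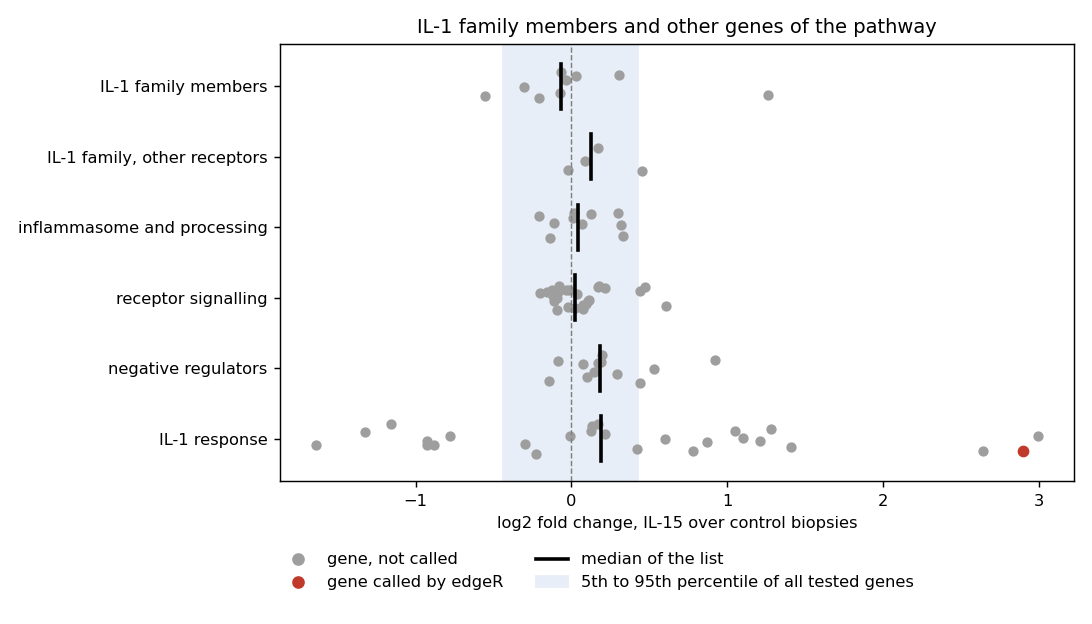
Log2 fold change (x axis) of each tested gene in the IL-1 family and in 5 lists of pathway genes (y axis), with black lines at the list medians and a band from the 5th to the 95th percentile of all tested genes (-0.44 to 0.43). PTX3 among the response genes is the only point called by edgeR (red), and 7 of the 9 family members lie inside the band.

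The genes whose pattern over the 8 biopsies was most like that of the 2 members with the smallest p were found by the root mean square distance of log2(CPM + 0.1) after the mean of each pig was removed, among 16693 tested genes with a mean of at least 1 CPM. Nearest to IL1R1 were NUAK1 (0.037), PDE10A (0.044) and RUVBL1 (0.046), where the median gene was at 0.27. Nearest to IL1B were SELP (0.307), CXCL2 (0.346) and SOD2 (0.404), where the median gene was at 1.09. CXCL2, a neutrophil-attracting chemokine, was at 22.8 and 37.7 CPM at the injected sites 12c and 12e of pig 13 and at 18.1 and 18.9 CPM at sites 12c and 12d of pig 14. In the controls CXCL2 was at 6.32 and 26.6 CPM at sites 6b and 7b of pig 13 and at 8.13 and 12.2 CPM at sites 6b and 7e of pig 14. As with IL1B, the control from site 7b lay above 3 of the 4 injected biopsies. The log2 fold changes of the 6 neighbours ran from 0.27 to 1.05 and none was called by edgeR (adjusted p = 0.964 for each).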

How the data were processed

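The authors' table of the series holds unnormalized counts per Ensembl gene for 8 biopsies, per the file headers. The authors also deposited CPM (counts scaled to the library total) and RPKM (CPM per kilobase of gene length) for each biopsy. Sscrofa11.1, STAR 2.5.1a and Subread with featureCounts 1.4.6-p5 are listed in the submitters' processing notes, beside bcl2fastq. The deposited CPM and RPKM were only compared with the counts and equalled values computed from them. The file of the pig 13 control from site 7b held 607 complete genes, and its counts were taken from the table of the series. Total counts were 28471089 to 36070107 per biopsy. Genes on several rows (425, with identical counts) were kept once.

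Genes were kept with filterByExpr of edgeR 4.0.16 (minimum count 10, R 4.3.3), which left 19862, with TMM scaling. Treatment and pig entered edgeR's quasi-likelihood F test, with Benjamini-Hochberg adjustment over all tested genes and a threshold of 0.05. Standard errors are the log2 fold change divided by the square root of F. Pig stayed in the model because the labels name the animal of each biopsy. Deviations from the group means correlated at 0.25 to 0.63 between injected and control biopsies of a pig and at -0.59 to -0.29 across pigs. No pair of replicate biopsies agreed within sampling noise. Alternatives were DESeq2 1.42.0, limma-voom (limma 3.58.1), other scaling and filters, no pig term, no rRNA or mitochondrial genes, and leaving out each biopsy. The scripts were tested on simulated data of 19545 genes. There DESeq2 made 31 false calls, and edgeR and limma-voom 9 each. Of genes with a true log2 fold change of 1, DESeq2 called 92%, edgeR 78% and limma-voom 72%.

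The members, lists and tests were chosen with earlier results of these data known. The rule named all members, up to 3 genes of smallest p per pathway list and 3 nearest genes for each of 2 members. Exceptions are marked in the text.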

Additional observations from a re-analysis of the deposited data

Results flagged for a closer look

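Dixon's test for an outlying sample was applied to the CPM of each of the 9 matched members in the injected and control biopsies, 18 groups of 4 in all, and chance flags about 1 in 20 such groups. It marked 2. IL1R2 was at 62.8 CPM in the pig 13 control from site 7b, against 29.4 to 33.7 CPM in the other 3 controls. The summed basal keratinocyte, differentiated keratinocyte and neutrophil markers were also highest in that biopsy, and their part in the value was not tested. IL18 was at 9.62 CPM in the pig 14 control from site 6b, against 7.10 to 7.38 CPM in the other 3 controls.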

How the results depend on the processing

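No member was called in any of the alternatives, in which the lowest adjusted p of a member was 0.344 (IL1A). IL1B, IL1R1, IL1A and IL1RAP kept their sign in all of them. IL1B ranged from 0.80 to 2.36 when a biopsy was left out and from 1.23 to 1.84 under other settings, and had no value with a minimum of 1 CPM in 4 biopsies, which it did not reach. IL1R1 ranged from 0.22 to 0.39 and from 0.30 to 0.31. The signs of members near 0 turned. IL1R2 had 0.12 without the pig 13 control from site 7b and 0.16 in pig 14 alone. IL18 had 0.13 in pig 13 alone. IL33 had -0.02 without the pig 14 control from site 7e, -0.061 without the pig 13 control from site 6b and -0.009 in pig 13 alone. IRAK3 had 0.027 without the injected site 12c of pig 14, 0.025 without the control site 7b and 0.011 in pig 13 alone. IL1RL1 had 0.002 with limma-voom, 0.147 without the injected site 12c of pig 14, 0.34 without the pig 14 control from site 6b and 0.27 in pig 13 alone. With a biopsy left out the values ran from -0.462 to 0.124 for IL1R2, -0.485 to -0.127 for IL18, -0.061 to 0.152 for IL33, -0.172 to 0.027 for IRAK3 and -0.199 to 0.341 for IL1RL1.

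Over all genes, DESeq2 called 48 higher and 10 lower, against 7 and 0 by edgeR, and 86 in the interaction, against 0. On simulated data DESeq2 also made more false calls than edgeR (31 against 9). With a biopsy left out edgeR called 3 to 19 genes higher and 0 to 1 lower. The cause was not tested. Without the pig term (no replicate block) 0 members and 6 genes in all were called higher, and 0 lower, and IL1R1 had 0.304 and IL1B 1.229. Depth limits IL1B most, with 2 to 56 counts per biopsy.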
